A study of Homo sapiens with 18 samples.

Results

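The genes described here are 10 cell surface receptors known from differentiated or undifferentiated states of melanoma: AXL, TYRO3, MERTK, EDNRB, EDNRA, KIT, MC1R, MET, NGFR and PDGFRB. They were chosen by name for what is known of these states, with earlier results of these data in view, and are 10 of the 56629 gene symbols in the deposited tables of raw read counts. All 10 symbols were listed for both cell lines. A filter on low counts left 9 of them for testing in SKmel147 (all but KIT), 7 in 501mel (all but AXL, EDNRA and PDGFRB) and all 10 where both cell lines were fitted together. In 501mel NGFR passed through the KO1.8 libraries alone, and it is left out of the counts of called members there. In SKmel147 PDGFRB passed through KO libraries, since its controls alone would not have met the filter. It stays among the 9 tested there, and its values are a description.

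The study sequenced polyadenylated RNA of 2 human metastatic melanoma cell lines and of lines made from them by CRISPR to lack ARID2, a DNA-binding subunit of the chromatin remodelling complex PBAF. In SKmel147, which carries NRASQ61R, the knockout (KO) lines were KO3.20, KO1.4 and KO1.5; they and a transduced control line, NT, were stably infected with Lenti-Cas9 and a PLKO guide vector. In 501mel, which carries BRAFV600E, the KO lines KO5.2 and KO1.8 and a transduced control, NTC, received Lenti-CRISPR V2 with Cas9 and a guide. Each cell line also had an untransduced parental line, Par, and every line had 2 libraries, giving 18 in all. "Controls" below means the transduced line and Par together, each weighted equally. The sources used here do not say whether a KO line was a clone or a pool, nor whether its 2 libraries came from separate cultures, so p-values measure the spread between libraries, which may be technical. All KO lines of a cell line share the same controls. In such bulk RNA, fewer cells that express a gene and less RNA per cell cannot be told apart.

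Melanocytes arise from the neural crest and depend on a set of surface receptors as they migrate and make pigment. KIT, the endothelin receptor EDNRB and the melanocortin receptor MC1R carry signals for melanoblast survival and for pigment synthesis, and they are typical of differentiated melanoma cells. AXL, NGFR and PDGFRB are known from melanoma cells that have lost pigment genes and tolerate inhibitors of the MAP kinase pathway, NGFR also as a neural crest receptor. MET, TYRO3 and MERTK are receptor tyrosine kinases found across these states.

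The promoters of 3 receptors are shown because the results turn on them: EDNRB, with the largest pooled difference among the members called in KO lines against controls in 501mel, AXL, the most abundant receptor of SKmel147, and MET, which differed between the KO lines of 501mel. RefSeq start sites on GRCh38.p14 were listed for 9 of the 10 receptors, with 12 promoters among them; NGFR was not among them. Each sequence runs 5′ to 3′ on the gene's strand, from 250 bases before the start site to 50 after it. Capitals mark matches, on either strand, to 4 motifs that were searched. These were CACGTG (an E-box of the kind bound by MITF), CATGTG or CACATG (the core of the M-box of pigment genes), TGACTCA or TGAGTCA (AP-1) and CATTCC or GGAATG (TEAD); none of them overlapped another here. EDNRB lies on the minus strand, AXL and MET on the plus strand.
EDNRB, chr13:77918782-77919081, minus strand: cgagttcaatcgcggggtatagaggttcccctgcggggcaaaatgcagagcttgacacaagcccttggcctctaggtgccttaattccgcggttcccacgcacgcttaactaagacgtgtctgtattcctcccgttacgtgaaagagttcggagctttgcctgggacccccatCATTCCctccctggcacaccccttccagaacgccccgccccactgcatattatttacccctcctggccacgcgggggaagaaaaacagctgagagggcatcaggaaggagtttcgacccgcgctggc
EDNRB, chr13:77919633-77919932, minus strand: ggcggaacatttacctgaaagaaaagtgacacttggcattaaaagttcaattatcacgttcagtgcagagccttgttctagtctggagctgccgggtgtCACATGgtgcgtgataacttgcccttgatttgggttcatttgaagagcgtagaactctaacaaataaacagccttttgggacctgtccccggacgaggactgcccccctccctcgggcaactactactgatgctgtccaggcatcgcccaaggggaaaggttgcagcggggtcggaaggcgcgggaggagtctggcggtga
AXL, chr19:41218973-41219272, plus strand: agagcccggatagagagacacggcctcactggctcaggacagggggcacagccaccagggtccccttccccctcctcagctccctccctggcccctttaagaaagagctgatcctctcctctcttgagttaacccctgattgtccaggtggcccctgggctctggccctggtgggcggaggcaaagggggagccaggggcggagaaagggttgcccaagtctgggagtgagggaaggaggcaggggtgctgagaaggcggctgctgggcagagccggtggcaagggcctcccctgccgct
AXL, chr19:41226505-41226804, plus strand: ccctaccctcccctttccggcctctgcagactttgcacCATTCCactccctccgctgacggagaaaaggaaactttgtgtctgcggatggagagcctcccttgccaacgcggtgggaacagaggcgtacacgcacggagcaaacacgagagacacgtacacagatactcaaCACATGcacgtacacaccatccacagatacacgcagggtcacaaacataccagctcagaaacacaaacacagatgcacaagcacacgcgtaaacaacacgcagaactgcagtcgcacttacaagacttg
MET, chr7:116671946-116672245, plus strand: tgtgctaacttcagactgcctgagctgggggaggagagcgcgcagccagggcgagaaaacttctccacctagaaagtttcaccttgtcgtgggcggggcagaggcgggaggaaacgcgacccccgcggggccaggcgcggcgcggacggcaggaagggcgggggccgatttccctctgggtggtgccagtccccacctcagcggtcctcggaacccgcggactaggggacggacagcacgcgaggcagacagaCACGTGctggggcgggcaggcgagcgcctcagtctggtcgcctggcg
The first EDNRB promoter held a TEAD match and the second an M-box core. The first AXL promoter held none of the 4 motifs, and the second held an M-box core and a TEAD match. MET held the single CACGTG among the 12 promoters, just past its start site. MC1R, on chromosome 16, also held an M-box core, and the other members' promoters held no match. Of all 35116 RefSeq promoters of this length, 7.26% held CACGTG, 11.1% an M-box core, 4.95% an AP-1 match and 14.0% a TEAD match. A match is a description of these letters and not evidence of binding.

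Libraries held 21266522 to 35670140 counts in SKmel147 and 16749707 to 20606855 in 501mel. ARID2 itself was below all controls in every KO library: 39.8 to 57.0 CPM (counts scaled to library size) in SKmel147 KO libraries against 62.3 to 72.8 in controls, and 19.8 to 31.9 CPM in 501mel KO libraries against 40.9 to 43.2 in controls. Its transcript was reduced and not absent, and in KO1.4 the reduction was not called (edgeR quasi-likelihood test, Benjamini-Hochberg adjusted p = 0.228). The SKmel147 Par pair stood apart from the other replicate pairs: for 95% of genes its replicates lay within 0.68 on the log2 scale, against 0.33 to 0.54 in the other SKmel147 lines and 0.24 to 0.30 in 501mel. Among markers of other cell types, the summed haematopoietic markers reached at most 1.25 CPM in any library, and PTPRC, the pan-leukocyte gene, was at 0 in all 501mel libraries. Endothelial markers summed to 4.32 to 9.87 CPM in SKmel147 KO libraries and 12.5 to 31.4 CPM in its controls. In these controls 4 of the 6 endothelial markers had over 10 counts in sum, and 1, the cadherin CDH5, was at 0. Fibroblast markers summed to 19.8 to 87.1 CPM in SKmel147 KO libraries and 18.5 to 68.6 CPM in its controls, mostly from the collagen gene COL6A3. In these controls 3 of the 5 fibroblast markers had over 10 counts in sum, LUM among them at 6.81 to 9.71 CPM. DCN, a fibroblast proteoglycan, was at 0 in SKmel147. Keratinocyte markers summed to 1.75 to 2.69 CPM in SKmel147 KO libraries and 0.559 to 1.05 CPM in its controls; KRT14, a basal keratin, rose there by 1.38 ± 0.19 on the log2 scale (edgeR adjusted p = 0.000425).

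In the control lines the receptors differed between the cell lines, as most tested genes did. SKmel147 expressed AXL and NGFR, with traces of EDNRA and PDGFRB, and 501mel expressed KIT, EDNRB and MERTK together with more MET, TYRO3 and MC1R. No receptor had overlapping libraries between the control lines of the cell lines. The share of all genes without overlap was not counted, so this is not read as a trait of the receptors. Of the 10, 5 passed the filter on low counts within both cell lines (TYRO3, MERTK, EDNRB, MC1R and MET), and these 5 were all called lower in SKmel147 (edgeR quasi-likelihood test, adjusted p under 0.05), where 80.7% of all 19518 genes tested were called in either direction. AXL, EDNRA, PDGFRB and KIT passed through 1 cell line alone and NGFR, in 501mel, through KO1.8 alone, so their values are given as a description. The median of all genes in this comparison was 0.10 on the log2 scale. All 10 differentiated state markers (MITF, SOX10, PMEL and others) were lower in SKmel147, and all 10 undifferentiated state markers (SOX9, WNT5A, ZEB1 and others) were higher. Within SKmel147 4 of the 10 differentiated markers passed the filter, and within 501mel 4 of the 10 undifferentiated ones. The lists were chosen with earlier results of these data known, so these counts are a description. The receptors split likewise in the untransduced Par lines. There AXL had 71036 counts in SKmel147 against 2 in 501mel, KIT 16 against 13375 and EDNRB 61 against 4544. Cell line and oncogene cannot be told apart in this comparison.

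AXL was the most abundant receptor in SKmel147 controls and near 0 in 501mel controls. Its control libraries held 38701 to 43266 counts in NT and 29491 to 41545 in Par, against 0, 2, 1 and 1 in the 501mel libraries NTC and Par. The 501mel side rests on 4 counts, and the ratio of summed CPM was 24535, with a 95% counting interval of 9582 to 90049.6. NGFR had 17873 counts in SKmel147 controls against 10 in 501mel controls, all 10 of them in NTC, a ratio of 1146 (95% counting interval 623 to 2391). EDNRA had 234 counts against 6, a ratio of 25.02 (11.3 to 68.9). PDGFRB had 31 counts against 3, which is a ratio of 6.63 (95% counting interval 2.07 to 33.9).

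The reverse held for the receptors of pigment cells. KIT had 16 counts in SKmel147 controls, all in Par, against 26102 in 501mel controls, a ratio of 0.000393 (95% counting interval 0.000225 to 0.000639). EDNRB had 81 counts against 7381 and a log2 difference of -7.32 ± 0.11 (SE). MERTK, a phagocytic receptor of macrophages that some melanomas also express, had 116 counts against 3311 and differed by -5.52 ± 0.14. MET, the receptor of hepatocyte growth factor, was high in both, at 134 to 174 CPM in SKmel147 controls against 576 to 599 CPM in 501mel controls, with a log2 difference of -1.94 ± 0.08. MC1R differed by -1.84 ± 0.32 and TYRO3 by -0.74 ± 0.09, the smallest difference of the 5.

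Divided by the length of the longest coding transcript, levels can be set beside each other within a cell line. In SKmel147 controls, AXL averaged 279.5 ± 31.9 CPM per kb (SD between lines, n = 2), NGFR 48.5 ± 35.5, MET 22.8 ± 0.0734 and TYRO3 3.52 ± 0.189. The order of NGFR and MET is not firm, since the NT libraries of NGFR lay within the range of MET. EDNRA followed at 0.478 ± 0.159, then MC1R at 0.348 ± 0.0510, MERTK at 0.249 ± 0.0987 and EDNRB at 0.151 ± 0.102 CPM per kb, each overlapping its neighbour in this order. In 501mel controls, MET led at 91.5 ± 0.542 CPM per kb, followed by KIT at 71.1 ± 6.70, EDNRB at 23.5 ± 9.08, MERTK at 11.8 ± 1.59, TYRO3 at 6.18 ± 0.702 and MC1R at 1.27 ± 0.113. The line means of these 6 did not overlap between neighbours. The order of MERTK and TYRO3 rests on the transcript lengths used, since undivided they averaged 46.8 and 50.7 CPM. NGFR, EDNRA, AXL and PDGFRB were at or below 0.0389 CPM per kb in 501mel, on 10 counts or fewer each, and no order is read among them.

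**Figure D1:**
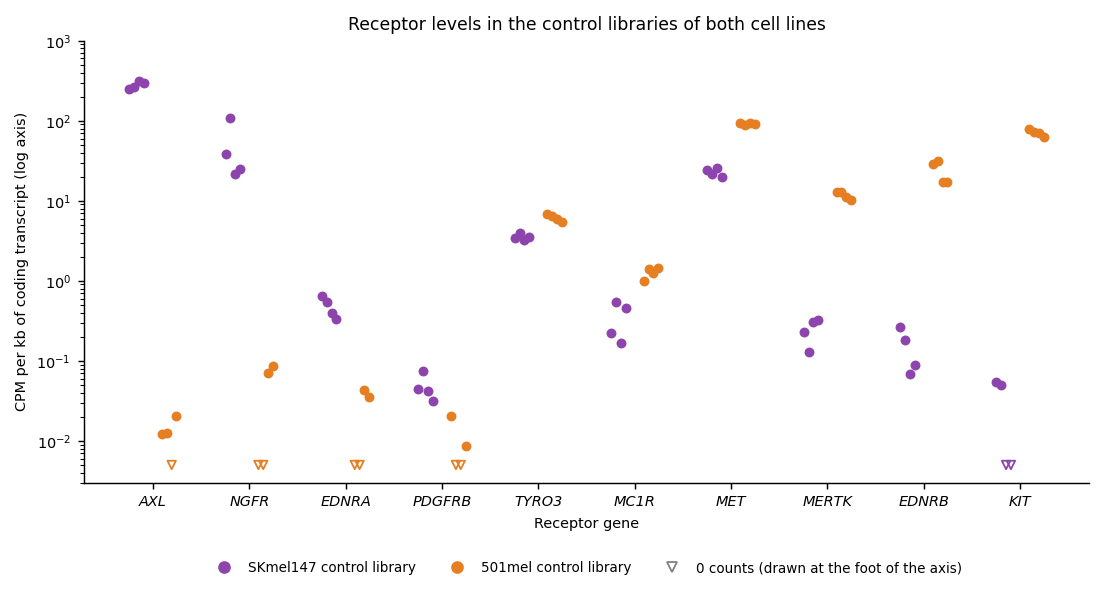
Levels of the 10 receptors in the 4 control libraries of SKmel147 (purple) and the 4 of 501mel (orange), as CPM per kb of coding transcript on a log axis; each point is 1 library and open triangles are libraries with 0 counts. AXL, NGFR, EDNRA and PDGFRB stand higher in SKmel147, and KIT, EDNRB, MERTK, MET, MC1R and TYRO3 stand higher in 501mel. No gene drawn overlaps between the cell lines, and the share of all genes without overlap was not counted.

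A smaller share of the receptors was called in the ARID2 KO lines of SKmel147 than in those of 501mel, as was the case for all genes tested. In SKmel147, 2 of 9 tested members were called in KO lines against controls, AXL lower and MERTK higher, where 17.7% of 18361 tested genes were called. In 501mel, 5 of 6 members other than NGFR were called, EDNRB, TYRO3 and KIT higher and MERTK and MET lower, where 51.3% of 16230 tested genes were called. With 9 and 6 genes, these shares are read only against that background, and each gene's size is given below. KO and control libraries did not overlap for EDNRB, TYRO3 and MERTK in 501mel and for MERTK in SKmel147. The share of all genes without such overlap was not counted, so this is not read as a trait of these receptors. By line, 0 of 9 members were called in KO1.4 (8.77% of genes called), 2 in KO1.5 (11.2%) and 0 in KO3.20 (12.6%). At an unadjusted p under 0.05 by edgeR, 2 members passed in KO1.4 (AXL and MERTK) and 4 in KO3.20 (these and EDNRB and PDGFRB), and DESeq2 called 0 members in either line. PDGFRB met the low-count filter through KO libraries, KO3.20 among them, so its p there is not read as a test. The endothelial markers, lower in the same KO libraries, and the keratinocyte gene KRT14, higher there, moved with this comparison, and their part in it was not tested. In 501mel, 5 of these 6 were called in KO5.2 (53.5% of genes called) and 4 of 6 in KO1.8 (40.2%).

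**Figure D2:**
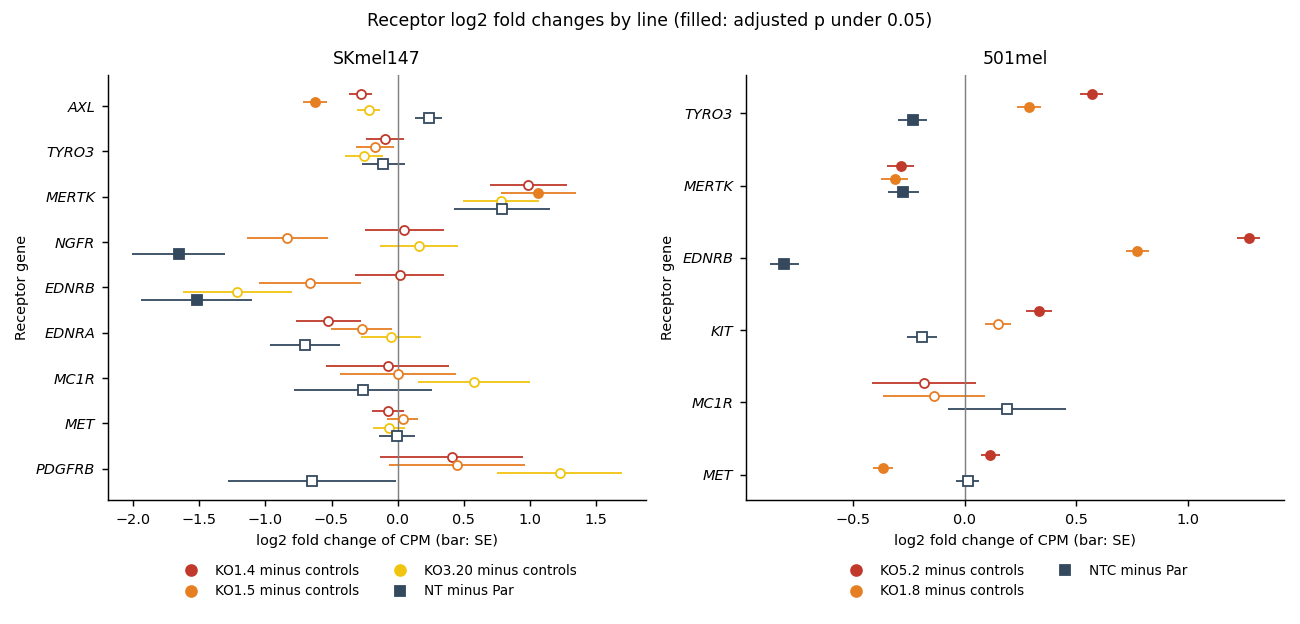
Log2 fold changes of the receptors by line, with SE, for SKmel147 (left) and 501mel (right): circles are each KO line minus the controls and squares are the transduced control minus Par, filled where the adjusted p was under 0.05. In 501mel EDNRB and TYRO3 lie right of 0 in both KO lines and left of 0 in NTC minus Par, and MET lies on opposite sides in KO5.2 and KO1.8; NGFR of 501mel, on few counts, and genes that were not tested are not drawn.

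AXL, TYRO3 and MERTK form the TAM family of receptor tyrosine kinases, whose ligands GAS6 and PROS1 bridge them to exposed phosphatidylserine. AXL in SKmel147 had 1107 and 1069 CPM in KO1.4, 829.5 and 881 CPM in KO1.5 and 1174 and 1093 CPM in KO3.20, against 1468 and 1394 CPM in NT and 1166 and 1269 CPM in Par. KO1.5 lay lowest and NT highest, and the KO libraries overlapped the controls through KO3.20 and Par alone. Averaged over lines, AXL stood at 1025 ± 149 CPM in KO lines (SD, n = 3 lines) and 1324 ± 151 CPM in control lines (n = 2), a log2 fold change of -0.37 ± 0.06 (0.77-fold, edgeR quasi-likelihood test, adjusted p = 0.00201). By line it was called in KO1.5 at -0.63 ± 0.09 (edgeR adjusted p = 0.00103) and not in KO1.4, at -0.28, or KO3.20, at -0.22. Without KO1.5 the log2 fold change was -0.24 and no longer called (edgeR adjusted p = 0.0571). Against Par alone it was -0.26 (edgeR adjusted p = 0.0427). With each line counted as 1 replicate the pooled call of AXL was lost (edgeR adjusted p = 0.374), as it was with limma voom and the line as a block (adjusted p = 0.107).

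The 10 tested genes nearest to AXL on chromosome 19 had a median log2 fold change of -0.41 in KO1.5, beside -0.63 for AXL itself. In KO1.4 and KO3.20 the same neighbours had medians of 0.48 and 0.48, opposite in sign to AXL. Whether a change of the whole region contributes to the AXL level in KO1.5 was not tested. In 501mel AXL had 1 count in 4 KO libraries and 4 in 4 control libraries, and no change was detectable at that depth (ratio 0.226, 95% counting interval 0.00458 to 2.28).

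MERTK moved in opposite directions in the cell lines, from very different levels. In SKmel147 it had 2.22 and 1.62 CPM in KO1.4, 1.75 and 2.27 CPM in KO1.5 and 1.38 and 1.93 CPM in KO3.20, against 1.22 and 1.30 CPM in NT and 0.898 and 0.516 CPM in Par. All 6 KO libraries stood above all 4 control libraries, on 45 to 62 counts each against 12 to 36. Its log2 fold change was 0.94 ± 0.23 (1.92-fold, edgeR adjusted p = 0.0135), with 0.78 in KO3.20, 0.99 in KO1.4 and 1.06 in KO1.5, of which the last alone was called (edgeR adjusted p = 0.0331). That call of KO1.5 was lost without either KO1.5 library, either NT library or Par replicate 2 (edgeR adjusted p = 0.0552 to 0.195), while the pooled call held without any 1 library. Par was the lowest line, and against NT alone the log2 fold change was 0.55 and not called (edgeR adjusted p = 0.253). The pooled call was also lost with each line counted as 1 replicate (edgeR adjusted p = 0.309) and with limma voom and the line as a block (adjusted p = 0.163).

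In 501mel MERTK had 39.7 and 36.5 CPM in KO5.2 and 37.2 and 37.6 CPM in KO1.8, against 44.0 and 40.7 CPM in NTC and 51.3 and 51.2 CPM in Par. The 4 KO libraries lay below all 4 controls, the nearest pair being 39.7 CPM in KO5.2 and 40.7 CPM in NTC. MERTK differed by a log2 fold change of -0.30 ± 0.05 (0.811-fold, edgeR adjusted p = 0.000129), and it was called in both KO lines. NTC was also lower than Par, by a log2 fold change of -0.28 ± 0.07 (edgeR adjusted p = 0.0133). Against NTC alone the fold change of the KO lines was -0.16, still called (edgeR adjusted p = 0.0350), but the calls of the single lines were lost, at an edgeR adjusted p of 0.0858 in KO5.2 and 0.0541 in KO1.8. With voom and the line as a block the pooled call was lost as well (adjusted p = 0.181), as it was with each line counted as 1 replicate (edgeR adjusted p = 0.404).

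TYRO3, a kinase known in melanoma for raising MITF expression, was the steadiest of the TAM receptors in SKmel147. There it lay between 21.3 and 29.7 CPM in the 6 KO libraries and between 26.7 and 32.2 CPM in the 4 controls, which overlapped. Its log2 fold change of -0.17 was not called, with a 95% interval of -0.41 to 0.06. In 501mel TYRO3 had 74.3 and 75.6 CPM in KO5.2 and 61.2 and 62.1 CPM in KO1.8, against 48.5 and 44.8 CPM in NTC and 56.0 and 53.6 CPM in Par. Every KO library stood above every control, KO5.2 above KO1.8 and Par above NTC. TYRO3 differed by a log2 fold change of 0.43 ± 0.04 (1.35-fold, edgeR adjusted p = 1.88e-06), 0.57 ± 0.05 in KO5.2 and 0.29 ± 0.05 in KO1.8. The pooled value was 0.31 against Par alone and 0.55 against NTC alone, both called. In KO1.8 the call was lost against Par alone (0.17, edgeR adjusted p = 0.0535). The pooled call was lost with each line counted as 1 replicate (edgeR adjusted p = 0.327) and with limma voom and the line as a block (adjusted p = 0.0643). Genes of chromosome 15 other than TYRO3 had a median of 0.22 in the same comparison, and its 10 neighbours a median of 0.24. In KO1.8 the neighbours' median of 0.31 was as large as the value of TYRO3, and their part in the result was not tested.

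Ligand transcripts of this family were present in the cells. PROS1 rose in SKmel147, to 40.1 to 51.8 CPM in KO libraries against 20.05 to 35.9 CPM in controls, by 0.70 ± 0.11 on the log2 scale (edgeR adjusted p = 0.00127). In 501mel PROS1 rose by 0.12 ± 0.04 (edgeR adjusted p = 0.0346). GAS6 lay at 36.6 to 59.0 CPM in SKmel147 KO libraries and 24.4 to 57.7 CPM in controls, with no call, and had 7 and 3 counts in the KO and control libraries of 501mel.

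EDNRB, the G protein-coupled receptor through which endothelins guide melanoblasts, showed the largest called difference of any member when the KO lines were pooled against controls. In 501mel it had 237 and 251 CPM in KO5.2 and 168 and 178 CPM in KO1.8, against 76.7 and 75.9 CPM in NTC and 127 and 139.9 CPM in Par. All 4 KO libraries stood above all 4 controls, in the order KO5.2, KO1.8, Par and NTC with no overlap between lines. The line means averaged 208 ± 50.6 CPM in KO lines and 105 ± 40.6 CPM in control lines (SD, n = 2 each), a log2 fold change of 1.02 ± 0.04 (2.03-fold, edgeR adjusted p = 2.00e-10). It was 1.27 ± 0.05 in KO5.2 and 0.77 ± 0.05 in KO1.8.

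The size depended on which control was used. NTC was lower than Par by a log2 fold change of -0.81 ± 0.06 (edgeR adjusted p = 1.16e-06), so the KO lines differed by 1.43 from NTC alone and by 0.62 from Par alone, both called. With each line counted as 1 replicate, which leaves 2 against 2, the fold change was 1.00 and not called (edgeR adjusted p = 0.298). Other genes of chromosome 13 had a median of 0.18 and the 10 neighbours of EDNRB one of 0.15.

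In SKmel147 EDNRB was close to the detection limit. Its KO libraries held 7 to 16 counts, against 9 and 11 in NT and 42 and 19 in Par, so Par alone stood apart. The log2 fold change of the KO lines was -0.62, with a 95% interval of -1.24 to 0.00, and was not called (edgeR adjusted p = 0.165). NT differed from Par by -1.52 ± 0.42 (edgeR adjusted p = 0.0442), a call that was lost when any 1 of the 10 libraries was left out. Against Par alone the KO lines were lower by -1.38 (edgeR adjusted p = 0.0105), and against NT alone they differed by 0.14, with no call.

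EDNRA, the receptor through which endothelin 1 contracts vessels, was a low transcript of SKmel147, with 31 to 61 counts in KO libraries, 49 and 38 in NT and 95 and 52 in Par. Its log2 fold change of -0.28 (95% interval -0.66 to 0.09) was not called. In 501mel EDNRA had 0 counts in all 4 KO libraries, 3 and 3 in NTC and 0 and 0 in Par, and was not tested. The ligand gene EDN1 fell in SKmel147, to 6.21 to 20.5 CPM in KO libraries against 12.6 to 24.0 CPM in controls, by 0.74 on the log2 scale (edgeR adjusted p = 0.00739). EDN1, EDN2 and EDN3 all had 0 counts in every library of 501mel. There ECE1, the protease that activates endothelins, rose by 0.66 ± 0.04 (edgeR adjusted p = 2.04e-08), at 175 to 293 CPM in KO libraries against 135 to 150.2 CPM in controls.

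**Figure D3:**
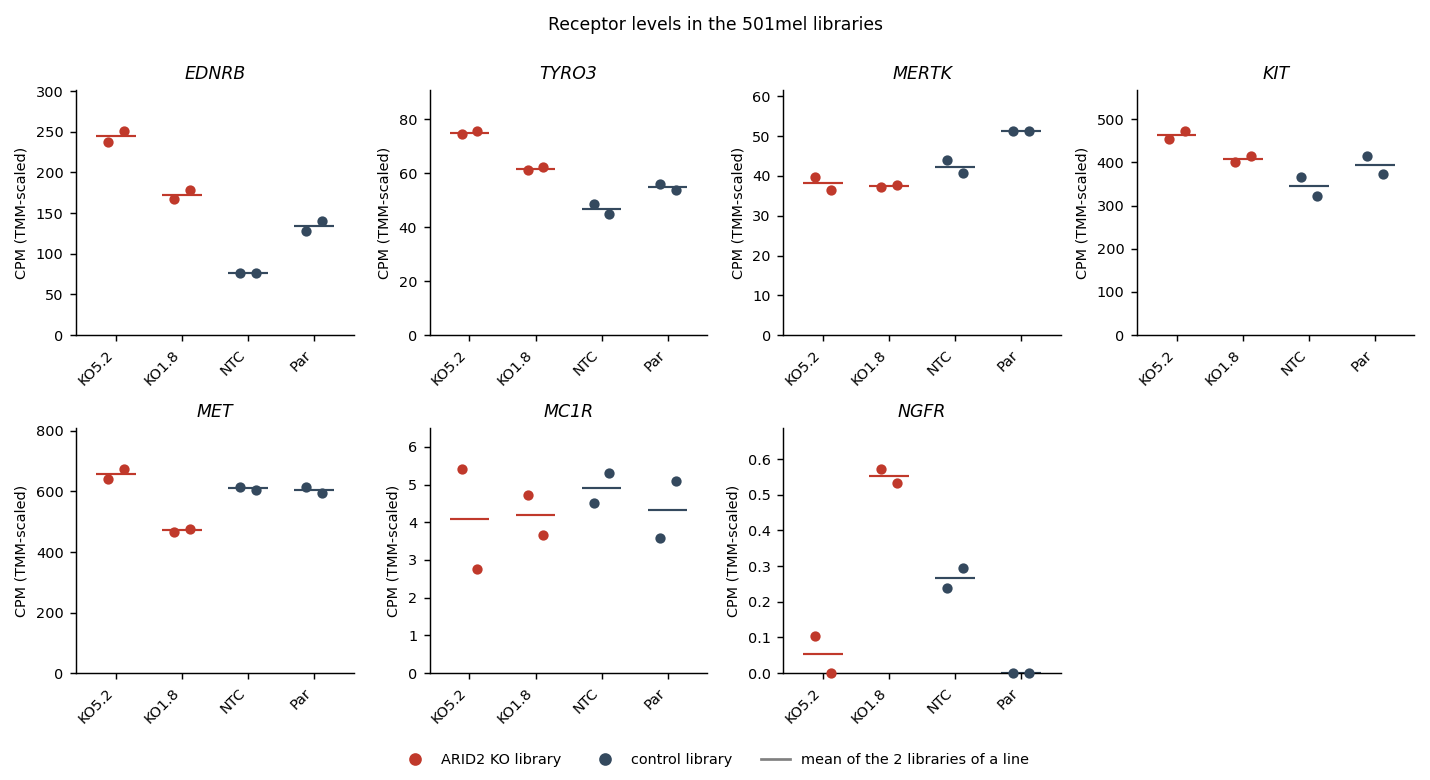
CPM of the 7 tested receptors in each 501mel library (points) with the mean of the 2 libraries of a line (bars); KO lines are red and control lines dark. EDNRB and TYRO3 are higher in every KO library than in any control and MERTK is lower, while MET is low in KO1.8 alone. The share of all genes without overlap between KO and control libraries was not counted.

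KIT, the stem cell factor receptor on which melanoblasts depend, was among the most abundant receptors of 501mel. It had 454 and 473 CPM in KO5.2 and 402 and 415 CPM in KO1.8, against 367 and 322 CPM in NTC and 414 and 373 CPM in Par. KO5.2 stood above all controls, and KO1.8 overlapped Par. KIT differed by a log2 fold change of 0.24 ± 0.05 (1.18-fold, edgeR adjusted p = 0.000651), called in KO5.2 at 0.33 ± 0.06 and not in KO1.8 at 0.15 (edgeR adjusted p = 0.0522). The KO1.8 result is near the threshold: 7 of 15 alternatives called it, among them NTC alone as control (0.25, edgeR adjusted p = 0.00877). Without KO5.2 (0.15, edgeR adjusted p = 0.0754) or against Par alone (0.14, edgeR adjusted p = 0.0635) the pooled call was lost. It was also lost with each line counted as 1 replicate (edgeR adjusted p = 0.451) and with limma voom and the line as a block (adjusted p = 0.283). KITLG, which encodes its ligand, fell to 4.62 to 7.78 CPM in KO libraries, against 17.4 to 18.2 CPM in controls, by 1.52 on the log2 scale (edgeR adjusted p = 1.29e-09).

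In SKmel147 KIT was detected in Par alone. It had 0 or 1 count in each of the 6 KO libraries and 0 in both NT libraries, against 10 and 6 in Par. KO over Par was a ratio of 0.0423 (95% counting interval 0.00471 to 0.180), and NT was at least 5.18-fold lower than Par, taking a floor of 3 counts over the pair. These intervals and floors cover counting error only. KITLG was present in SKmel147, at 13.7 to 48.4 CPM in KO libraries and 20.5 to 41.0 CPM in controls, with no call.

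MC1R, the melanocortin receptor that drives eumelanin synthesis through cyclic AMP, did not change detectably. It had 55 to 103 counts in the 501mel KO libraries and 61 to 108 in controls, and 29 to 66 counts in the SKmel147 KO libraries and 18 to 46 in controls. The log2 fold change was -0.16 (95% interval -0.57 to 0.24) in 501mel and 0.17 (-0.56 to 0.90) in SKmel147. Exons of MC1R overlap those of TCF25 and other genes on the same strand in the annotation used here, so its counts are uncertain. Its ligand gene POMC had 0 counts in every library. ATRN, which encodes a co-receptor of the MC1R antagonist agouti, rose in 501mel by 0.46 ± 0.04 (edgeR adjusted p = 5.53e-07), at 125 to 142 CPM in KO libraries against 92.5 to 105 CPM in controls.

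MET was expressed in every library of both cell lines and was the member on which the 501mel KO lines went apart. It had 641 and 674 CPM in KO5.2 and 465 and 477 CPM in KO1.8, against 614 and 606 CPM in NTC and 616 and 594 CPM in Par. Both KO1.8 libraries lay below all controls and both KO5.2 libraries above them. The pooled log2 fold change of -0.13 ± 0.04 (edgeR adjusted p = 0.00903) therefore averages 0.12 ± 0.04 in KO5.2 (edgeR adjusted p = 0.0381) and -0.37 ± 0.04 in KO1.8 (edgeR adjusted p = 1.56e-05). The KO5.2 value is the less firm: its call was lost in 8 of 15 alternatives (edgeR adjusted p up to 0.342), among them each KO5.2 library left out, Par replicate 2 or either NTC library left out, and either control line alone. Without KO1.8 the pooled sign turned, to 0.11 (edgeR adjusted p = 0.0472), and without 1 KO5.2 library, replicate 1, the call was lost (-0.11, edgeR adjusted p = 0.0577). The pooled call was also lost with each line counted as 1 replicate (edgeR adjusted p = 0.836) and with limma voom and the line as a block (adjusted p = 0.637). The 10 neighbours of MET on chromosome 7 had medians of -0.24 in KO5.2 and -0.21 in KO1.8, so they did not part as MET did.

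In SKmel147 MET lay at 139 to 168 CPM in KO libraries and 132 to 171 CPM in controls, a log2 fold change of -0.04 (95% interval -0.23 to 0.16). HGF, the ligand, was at or near 0 counts in both cell lines, at most 0.0503 CPM in 501mel KO libraries and 0.176 CPM in its controls.

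NGFR, the low-affinity neurotrophin receptor, varied widely between SKmel147 libraries. It had 145 and 148 CPM in KO1.4, 70.9 and 88.3 CPM in KO1.5 and 179 and 137 CPM in KO3.20, against 74.7 and 85.1 CPM in NT and 130 and 373 CPM in Par. The replicates of Par differed 2.87-fold. KO libraries overlapped the controls, and all of them lay below Par replicate 2. The log2 fold change of -0.21 (95% interval -0.69 to 0.27) was not called. NT was lower than Par by -1.65 ± 0.35 (edgeR adjusted p = 0.0149), a call that was lost without NT replicate 1 (edgeR adjusted p = 0.104). Without Par replicate 1 the KO lines were called lower, at -0.49 (edgeR adjusted p = 0.00893), and without Par replicate 2 NGFR was called higher in KO1.4, at 0.53 (edgeR adjusted p = 0.0316), and in KO3.20, at 0.64 (edgeR adjusted p = 0.0101). The calls and their direction thus depend on the Par libraries. Against Par alone the KO lines were lower by -1.03 (edgeR adjusted p = 0.0178) and against NT alone the difference was 0.62, not called.

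In 501mel NGFR had 2 and 0 counts in KO5.2 and 11 and 11 in KO1.8, against 4 and 6 in NTC and 0 and 0 in Par. KO1.8 was highest, and was at least 6.25-fold higher than Par with a floor of 3 counts over the pair, and had 2.05 times the level of NTC (95% counting interval 0.932 to 4.85). NGFR passed the filter through these KO1.8 libraries, so the difference is a description. The pooled comparison with the controls was not called (edgeR adjusted p = 0.118). BDNF, a neurotrophin that NGFR binds, lay at 39.8 to 46.1 CPM in SKmel147 KO libraries and 33.5 to 45.1 CPM in controls, and had 0 counts in every 501mel library. SORT1, the sortilin with which NGFR binds proneurotrophins, stood at 541 to 653 CPM in 501mel KO libraries and 433 to 528 CPM in controls. LINGO1, which joins NGFR and RTN4R in a receptor complex of neurons, rose in 501mel to 14.2 to 15.9 CPM in KO libraries against 3.24 to 6.62 CPM in controls, by 1.73 ± 0.08 (edgeR adjusted p = 8.82e-10).

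PDGFRB, the platelet-derived growth factor receptor of mesenchymal cells, was at the edge of detection. It had 5 to 22 counts in SKmel147 KO libraries, most in KO3.20 with 22 and 17, against 7 and 5 in NT and 9 and 10 in Par. The log2 fold change of 0.69 (95% interval -0.16 to 1.55) was not called. PDGFRB met the low-count filter in SKmel147 through KO libraries, so this value is a description. The 501mel libraries held 3 counts in KO lines and 3 in controls. PDGFD, whose product binds this receptor, rose in SKmel147 by 0.71 ± 0.18 (edgeR adjusted p = 0.0195) and fell in 501mel by 1.31 on the log2 scale (edgeR adjusted p = 1.89e-07), to 2.87 to 5.03 CPM in KO libraries against 8.24 to 10.9 CPM in controls.

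**Figure D4:**
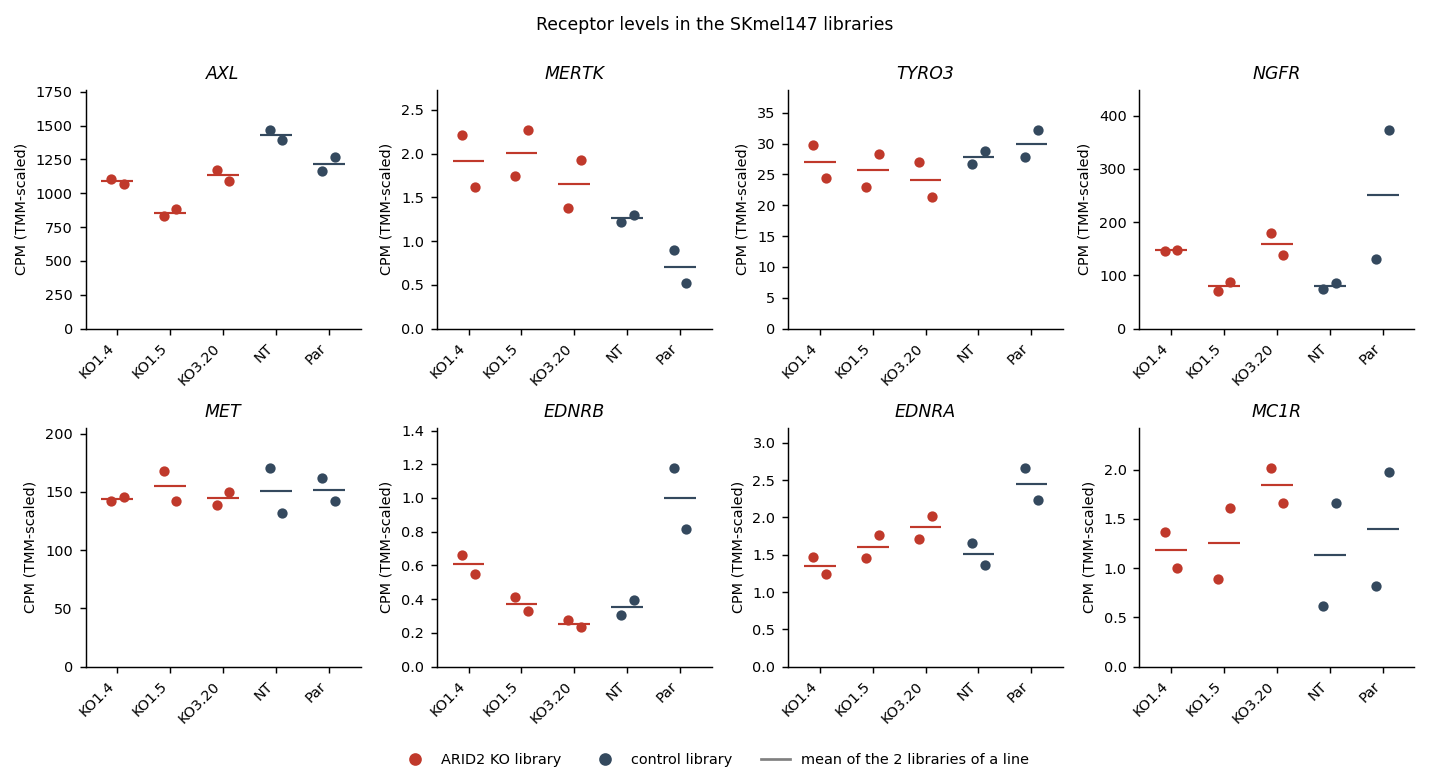
CPM of 8 receptors in each SKmel147 library (points) with the mean of the 2 libraries of a line (bars); KO lines are red and control lines dark, and KIT and PDGFRB, with at most 22 counts in a library, are not drawn. AXL is lowest in KO1.5, MERTK is higher in all KO libraries than in any control, and the Par replicates of NGFR lie far apart. The share of all genes without overlap between KO and control libraries was not counted.

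The control lines differed from each other in several receptors. In SKmel147, 2 of 9 members were called in NT against Par, NGFR and EDNRB, both lower in NT, where 9.27% of genes were called. In 501mel, 3 of 6 were called in NTC against Par, where 15.7% of genes were called: EDNRB, TYRO3 and MERTK, all lower in NTC. TYRO3 differed by -0.23 ± 0.06 (edgeR adjusted p = 0.0234). The calls of TYRO3 and MERTK were lost without Par replicate 1 (adjusted p = 0.124 and 0.0512 by edgeR) or NTC replicate 2 (0.214 and 0.146). For EDNRB and TYRO3 of 501mel this difference ran against that of the KO lines, and for MERTK it ran the same way.

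KO lines of the same cell line could also be set against each other. Among the 3 SKmel147 KO lines 0 of 9 members were called by edgeR, where 5.46% of genes were called; AXL came nearest, with an adjusted p of 0.0611 by edgeR. At an unadjusted p under 0.05 by edgeR 2 members passed, AXL and NGFR, and DESeq2 called 1. KO5.2 against KO1.8 in 501mel called 4 of 6 members, where 41.3% of genes were called. EDNRB was higher in KO5.2 by 0.50 ± 0.06, MET by 0.48 ± 0.05, TYRO3 by 0.28 ± 0.06 and KIT by 0.18 ± 0.07. NGFR had 2 counts against 22. The call of KIT was lost without any 1 of the 4 libraries (edgeR adjusted p = 0.0642 to 0.200). KO5.2 also had the less ARID2 transcript, -0.62 ± 0.08 on the log2 scale (edgeR adjusted p = 1.53e-05). MERTK did not differ detectably between them (0.03, 95% interval -0.12 to 0.18).

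The KO effect itself was compared between the cell lines in 1 fit of all 18 libraries. It differed for 3 of the 5 members that passed the filter within both cell lines, where 21.3% of genes were called. The SKmel147 effect minus the 501mel effect was -1.65 ± 0.21 for EDNRB (edgeR adjusted p = 2.66e-05), 1.23 ± 0.19 for MERTK (edgeR adjusted p = 0.000168) and -0.59 ± 0.12 for TYRO3 (edgeR adjusted p = 0.00226). For MET the difference was 0.10 ± 0.11 and for MC1R 0.34 ± 0.43, neither called. For the other 5 members 1 cell line held almost no counts, and no difference is given.

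MERTK was the single member called in both cell lines. The genes whose line means tracked it most closely over the 9 lines, with each cell line's own mean removed, were THUMPD3 (Pearson r = 0.966), C17orf58 (0.962) and TMEM144 (0.960), among 11421 genes compared. These are descriptions, drawn as the highest of many, over lines that share controls and a cell line.

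The surroundings of the receptors were read from 4 lists of genes, chosen like the members with earlier results of these data known. Of 17 ligand genes, 9 were tested in SKmel147, with 2 higher and 1 lower in KO lines, and 5 in 501mel, with 1 higher and 2 lower. For all 4 lists the backgrounds are those of the pooled comparisons, 17.7% of genes called in SKmel147 and 51.3% in 501mel, and the counts are read only against these. Of 20 co-receptors and related receptors, 8 were tested in each cell line: 1 rose and 2 fell in SKmel147, and 6 rose and 1 fell in 501mel. Their median log2 fold change was -0.09 in SKmel147 and 0.29 in 501mel, beside -0.01 for all genes tested in each. In SKmel147 NRP1, a neuropilin that binds growth factors, rose by 0.49 ± 0.06 (edgeR adjusted p = 0.000349). The 2 that fell there were RTN4R and SORCS2, on 16 and 35 counts in KO libraries against 69 and 70 in controls. At these counts the low-count filter may have been met through the control libraries alone, so these 2 falls are a description. In 501mel the co-receptor genes with the smallest adjusted p were LINGO1, RTN4RL1 (1.44 ± 0.10) and ATRN.

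Among genes that process receptors and their ligands, 1 of 11 tested rose and 2 fell in SKmel147, and 4 of 9 rose and 3 fell in 501mel. LRIG1, which speeds the degradation of receptor tyrosine kinases such as MET, fell in both cell lines. It had 1.79 to 2.72 CPM in SKmel147 KO libraries against 3.76 to 5.80 CPM in controls, and 0.315 to 7.08 CPM in 501mel KO libraries against 17.6 to 31.1 CPM in controls. It fell by 1.05 on the log2 scale in SKmel147 (edgeR adjusted p = 0.00137) and by 3.92 in 501mel (edgeR adjusted p = 3.59e-12). ADAM17, a sheddase of many receptors, rose in SKmel147 by 0.24 ± 0.07 (edgeR adjusted p = 0.0286), and FURIN, the protease that matures the MET precursor, rose in 501mel by 0.59 ± 0.04 (edgeR adjusted p = 4.74e-08).

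Of 20 adaptors and signalling genes, 19 were tested in SKmel147, with 3 higher and 2 lower, and 20 in 501mel, with 7 higher and 6 lower. PDE4B, a phosphodiesterase that degrades cyclic AMP, went opposite ways. It rose in 501mel by 1.00 ± 0.04 (edgeR adjusted p = 2.00e-10) and fell in SKmel147 by 1.09 on the log2 scale (edgeR adjusted p = 0.00916), where it had 157 counts in KO libraries and 183 in controls. In 501mel ADCY2, an adenylyl cyclase, rose by 0.98 ± 0.05 (edgeR adjusted p = 1.78e-09), and SHC1, an adaptor of receptor tyrosine kinases, fell by 0.62 on the log2 scale (edgeR adjusted p = 1.35e-07). In SKmel147 PDE4D rose by 0.44 ± 0.09 (edgeR adjusted p = 0.00673) and STAT3 by 0.29 ± 0.07 (edgeR adjusted p = 0.0145).

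State markers are set against the same backgrounds, 17.7% of genes called in SKmel147 and 51.3% in 501mel. Of 10 differentiated state markers, 0 of 4 tested were called in SKmel147, and in 501mel 2 of 10 rose and 2 fell, with TYRP1, a melanin enzyme, falling by 0.99 and DCT rising by 0.41 on the log2 scale. MITF, the lineage regulator, lay at 773 to 1047 CPM in 501mel KO libraries and 824 to 949 CPM in controls, with no call, while EDNRB, TYRO3 and KIT rose. Of 10 undifferentiated state markers, 2 rose and 4 fell in SKmel147, where AXL fell, among them WNT5A with a rise of 1.15 ± 0.11 and SOX9 with a fall of 1.00 on the log2 scale. In 501mel 2 of 4 tested fell.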

How the data were processed

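The deposited tables hold whole-number read counts per gene symbol, 1 table per cell line, and were used as the authors deposited them. Per the submitters' processing notes, STAR 2.6.0 and featureCounts were used, with GRCh37 and hg19 named as builds; no annotation release or strand setting of the counting was found in the sources. The library kit was a directional one, per the labels.

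The members and gene lists were chosen with earlier results of these data known. Named genes were all members, ARID2, up to 3 called genes per list and cell line with the smallest adjusted p, and ligands or co-receptors of members by level. Counts were scaled by TMM, filtered with filterByExpr (minimum count 10, minimum total 15) and tested with the quasi-likelihood test of edgeR 4.0.16 in R 4.3.3, 1 coefficient per line, in a fit per cell line and a joint fit for comparisons between cell lines. P-values were adjusted by Benjamini-Hochberg over all tested genes, with calls under 0.05. Intervals are at 95% (for summed counts, exact binomial), and the floor is 3 counts. CPM are TMM-scaled within a cell line, except the MET ranges in the comparison of control lines, which are from the joint fit. Lengths came from GENCODE 29 (GRCh38, another build than the authors'), and promoters from RefSeq. Simulated data with known changes were recovered for 93% of log2 changes of 1 and 46% of 0.5 in the SKmel147 KO comparison (17956 genes), and 100% and 78% in that of 501mel (15877 genes). Simulated lines of the same role had no differences between them, unlike the real lines. These shares therefore check the code and do not carry over to the real comparisons. Alternatives were DESeq2 1.42.0 (size factors and test), no low-count filter, a replicate block, each library or KO line left out, each control line alone, the line as the replicate, limma 3.58.1 voom with the line as a block, and a GC and length correction (values for 83.9% and 85.7% of tested genes). Replicate pairs differed beyond sampling noise in every line, so no library was counted as a duplicate.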

Additional observations from a re-analysis of the deposited data

Results flagged for a closer look

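The KO effect differed between the cell lines for 3 receptors, by the test of the difference itself (SKmel147 effect minus 501mel effect, edgeR quasi-likelihood test, Benjamini-Hochberg adjusted): EDNRB by -1.65 (adjusted p = 2.66e-05), MERTK by 1.23 (adjusted p = 0.000168) and TYRO3 by -0.59 (adjusted p = 0.00226) on the log2 scale. The EDNRB value sets a receptor with 7 to 16 counts per KO library in SKmel147 beside one with 3222 to 4992 counts in 501mel.

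The 501mel KO lines differed from each other in 4 receptors, by the edgeR test of KO5.2 minus KO1.8. EDNRB differed by 0.50 (adjusted p = 1.26e-05), MET by 0.48 (adjusted p = 4.21e-06), TYRO3 by 0.28 (adjusted p = 0.00181) and KIT by 0.18 (adjusted p = 0.0399). NGFR had a fitted difference of -3.26, on 2 counts in KO5.2 and 22 in KO1.8, a ratio of 0.0932 with a 95% counting interval of 0.0106 to 0.379. It passed the filter on low counts through KO1.8 alone and the fitted value depends on the prior count, so it is a description and not a tested difference.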

How the results depend on the processing

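Of the members' log2 fold changes under all alternatives, 1645 kept their side of the threshold, 66 lost a call and 34 gained one. A further 1 changed sign with a call: MET in 501mel without line KO1.8, at 0.11. Sign changes of values that were not called either way are among the 1645. EDNRB of SKmel147 is an example, at -0.62 against both controls and 0.14 against NT alone. Counts of members here include those that passed the filter through 1 group alone, NGFR of 501mel among them. Of the 5 members that passed the filter within both cell lines, 5 stayed called between the control lines and 3 for the difference of the KO effect under every alternative run. For these comparisons the alternatives were DESeq2, no low-count filter, a replicate block and each library left out. Each control line alone, each KO line left out, the line as the replicate, voom and the GC and length correction were not run for them. Whether the calls would hold there was not tested. Members called in KO lines against controls in SKmel147 numbered 2, and 4 against Par alone, 1 against NT alone, 1 without line KO1.5, 0 with the line as the replicate and 0 with voom. Genes called there numbered 3245, and 2076 against NT alone, 2094 without line KO3.20, 13 with the line as the replicate, 597 with voom and 5495 with the GC and length correction. In 501mel, 5 members and 8325 genes were called, 0 and 0 with the line as the replicate, and 1 and 942 with voom, in which EDNRB alone stayed called. With the line as the replicate the comparison has 3 lines against 2 or 2 against 2; the cause of the other shifts was not tested.

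NT against Par called 2 members and 1702 genes: 2680 genes without the low-count filter, 3156 genes and 4 members with the GC and length correction, and 1 member with the DESeq2 test. Among the SKmel147 KO lines 0 members and 1002 genes were called: 1 member with the DESeq2 test, and 2 members and 1879 genes without the low-count filter. NTC against Par called 4 members and 2547 genes, and 1 member and 1590 genes with the DESeq2 test. Leaving out 1 library at a time gave 0 to 1 members and 436 to 2375 genes for NT against Par (436 without NT replicate 1), 0 to 2 members and 410 to 1401 genes among SKmel147 KO lines, 1 to 4 members and 1310 to 2652 genes for NTC against Par, and 3 to 5 members for KO5.2 against KO1.8.

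Replicate numbers were not taken to pair the samples, since neither the labels say so nor did every pair of lines correlate over 0.1. Deviations of same-numbered libraries correlated at -0.72 to 0.77 over 10 pairs of SKmel147 lines, 4 of them over 0.1, and at 0.05 to 0.36 over 6 pairs of 501mel lines, 5 of them over 0.1. With the number as a replicate block, KO lines against controls called 3083 genes and 2 members in SKmel147 and 9045 genes and 5 members in 501mel, NT against Par 1 member, and NTC against Par 3560 genes and 5 members. Depth limited EDNRA, EDNRB, KIT, MC1R, MERTK and PDGFRB in SKmel147 and AXL, EDNRA, MC1R, NGFR and PDGFRB in 501mel. Each of these had at most 108 counts in a library.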
